A study of Mus musculus with 8 samples.

Results

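Axon guidance genes encode secreted and membrane-bound cues and the receptors that read them. The genes described here are the semaphorins and their plexin and neuropilin receptors, the ephrins and Eph receptors, the Slits and Robo receptors, the netrins with the DCC, UNC5 and neogenin receptors, and the repulsive guidance molecules (RGM). They were chosen by gene name among genes with exons in the deposited tables, which gave 72 genes of 21991, 37 ligands and 35 receptors. They were compared between 2 fractions sorted from the bone marrow of C57BL/6 mice aged 8 to 10 weeks. Both fractions were Lineage-, c-Kit+, Sca1+ and CD150+. The CD34- cells are labelled HSC (hematopoietic stem cells) and the CD34+ cells HPC (hematopoietic progenitor cells), with 4 bulk RNA-seq libraries each. No allele or treatment is given for either fraction. The protocol names 5000 sorted cells per extraction but speaks of HSC alone, and no label says whether libraries came from separate mice, so p-values measure the spread between libraries, which may be technical.

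These families were first described as signals that steer growing axons, and they act in many tissues. A semaphorin binds a plexin, whose intracellular domain switches off small Rap GTPases. Most secreted class 3 semaphorins need a neuropilin as co-receptor. Ephrins are held on the surface of one cell, the A class by a lipid anchor and the B class by a transmembrane segment, and they bind Eph receptor tyrosine kinases on its neighbour, often with signals in both directions. Slits bind Robo receptors, netrins bind DCC and UNC5 receptors, and neogenin binds both netrins and RGM proteins. In marrow and blood vessels, members of these families are known for roles in cell adhesion, migration and vessel patterning.

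The libraries held 16291733 to 20564901 exon reads, of which 48.6% to 56.8% crossed an exon-exon junction. The sort genes Kit, Ly6a, Slamf1, Cd34 and Ptprc were checked first. By the edgeR test described below, 2 of these 5 were higher in HSC, 2 were lower and 1 had no call. Cd34 averaged 120 CPM (reads per 1000000 exon reads, scaled by the TMM method) in HSC and 1276 CPM in HPC. Slamf1, which encodes CD150, averaged 37.6 CPM in HSC against 3.14 CPM in HPC, although both fractions were sorted as CD150+. Kit averaged 924 and 746 CPM. Of 7 genes of the lineage panel, 6 were tested, with 4 higher in HSC and 1 lower. The most abundant of them, Itgam, averaged 1.88 CPM in HSC against 38.3 CPM in HPC. Over all genes tested, 19.6% were higher in HSC and 17.6% lower. A count of 3 reads, the floor used for genes at 0, was worth on average 0.161 CPM in HSC libraries and 0.160 CPM in HPC libraries.

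The following windows of 250 bases before an annotated transcript start show the sequence in front of genes that moved in each direction. Efna1 and Plxna2 were higher in HSC, and Plxnd1 and Sema3d were lower. They were picked after their values were seen, from genes whose annotated start coincides with the gene start in the deposited tables. Sequences are from RefSeq on build GRCm38.p6, 5′ to 3′ on the strand of the gene, with each CG dinucleotide in capitals.
Efna1, chr3:89280952-89281201, minus strand: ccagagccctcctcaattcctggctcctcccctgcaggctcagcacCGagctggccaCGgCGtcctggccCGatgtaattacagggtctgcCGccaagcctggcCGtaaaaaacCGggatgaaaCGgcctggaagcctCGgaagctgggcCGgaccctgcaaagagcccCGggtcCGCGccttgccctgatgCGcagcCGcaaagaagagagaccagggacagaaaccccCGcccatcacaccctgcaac
Plxna2, chr1:194619579-194619828, plus strand: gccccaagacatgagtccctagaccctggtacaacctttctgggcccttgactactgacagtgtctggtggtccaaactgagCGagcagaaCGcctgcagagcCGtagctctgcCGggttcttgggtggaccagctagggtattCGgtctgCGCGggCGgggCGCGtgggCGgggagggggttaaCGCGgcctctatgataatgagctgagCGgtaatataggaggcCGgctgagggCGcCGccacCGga
Plxnd1, chr6:115995006-115995255, minus strand: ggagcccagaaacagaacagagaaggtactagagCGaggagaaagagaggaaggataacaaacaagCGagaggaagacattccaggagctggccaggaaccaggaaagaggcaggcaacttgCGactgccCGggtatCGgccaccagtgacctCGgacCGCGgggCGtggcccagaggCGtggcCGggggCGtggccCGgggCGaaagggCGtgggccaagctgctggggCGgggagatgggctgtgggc
Sema3d, chr5:12382916-12383165, plus strand: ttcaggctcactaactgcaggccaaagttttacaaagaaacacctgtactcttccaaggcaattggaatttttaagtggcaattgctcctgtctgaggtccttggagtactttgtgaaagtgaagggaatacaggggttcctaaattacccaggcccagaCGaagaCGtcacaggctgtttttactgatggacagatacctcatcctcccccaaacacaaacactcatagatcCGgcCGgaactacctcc
Efna1 held 16 CG dinucleotides in its window, Plxna2 held 18, Plxnd1 held 16 and Sema3d held 4. The median over 27025 mouse promoter windows of this length was 6. Of the 72 guidance genes, 61 had a window in the table. The median was 13 for the 15 genes higher in HSC, 13 for the 8 lower in HSC, and 20 for the 13 tested without a call. The medians of the genes that rose and of those that fell were thus equal. The letters AGGAAG, the core bound by ETS factors, lay on either strand in 12 of 23 called genes with a window. They lay in 3 of 13 without a call, 7 of 25 not tested and 22 of 61 guidance genes together. The share over all windows was 29.2%. Plxnd1 held this core at 2 places. AGATAA, the GATA core, lay in 1 of the 23, with 10.3% over all windows, and TGTGGT, the RUNX core, lay in 2, with 14.2% over all windows. An E-box, CAGCTG or CACGTG, lay in 3 of the 23, with 17.9% over all windows. These are matches of letters and carry no measure of binding. Windows over all mouse genes were the first listed for each gene, and those of guidance genes the nearest to the gene start. Even so, the window of Sema4d lay 37064 bases from the gene start in the deposited tables, and that of Robo1 635598 bases.

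Of the 72 guidance genes, 38 passed the count filter, which asks for about 10 reads in at least 4 libraries. In edgeR's quasi-likelihood test, with Benjamini-Hochberg adjustment over all 12751 genes tested and a threshold of 0.05, 16 were higher in HSC, 8 were lower and 14 had no call. That is 42.1% of the tested guidance genes higher and 21.1% lower, where the same test called 19.6% of all tested genes higher and 17.6% lower. The HSC and HPC libraries did not overlap for 23 of the 38 genes, against 36.7% of all tested genes. The median log2 change was 0.92, against 0.00 over all tested genes. Changes of at least 2-fold were seen for 22 of the called genes, 15 higher and 7 lower. The called gene Neo1 passed the filter through the HSC libraries alone and Sema3d through the HPC libraries alone. Without both, 15 of 36 were higher and 7 were lower. Of the genes called higher, Efna1, Rgmb, Robo1 and Sema7a reached the filter minimum in 4 HSC libraries but only 1 HPC library. Efnb2 and Plxna2 reached it in 4 HSC libraries and 2 HPC libraries. They too passed through their HSC level, so leaving out only Neo1 and Sema3d does not free the counts from the filter. In bulk RNA, fewer cells of a type and less RNA per cell cannot be told apart. Both ligands and receptors moved in both directions, with 7 of 17 tested ligands and 9 of 21 tested receptors higher in HSC and 4 of each lower.

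**Figure D1:**
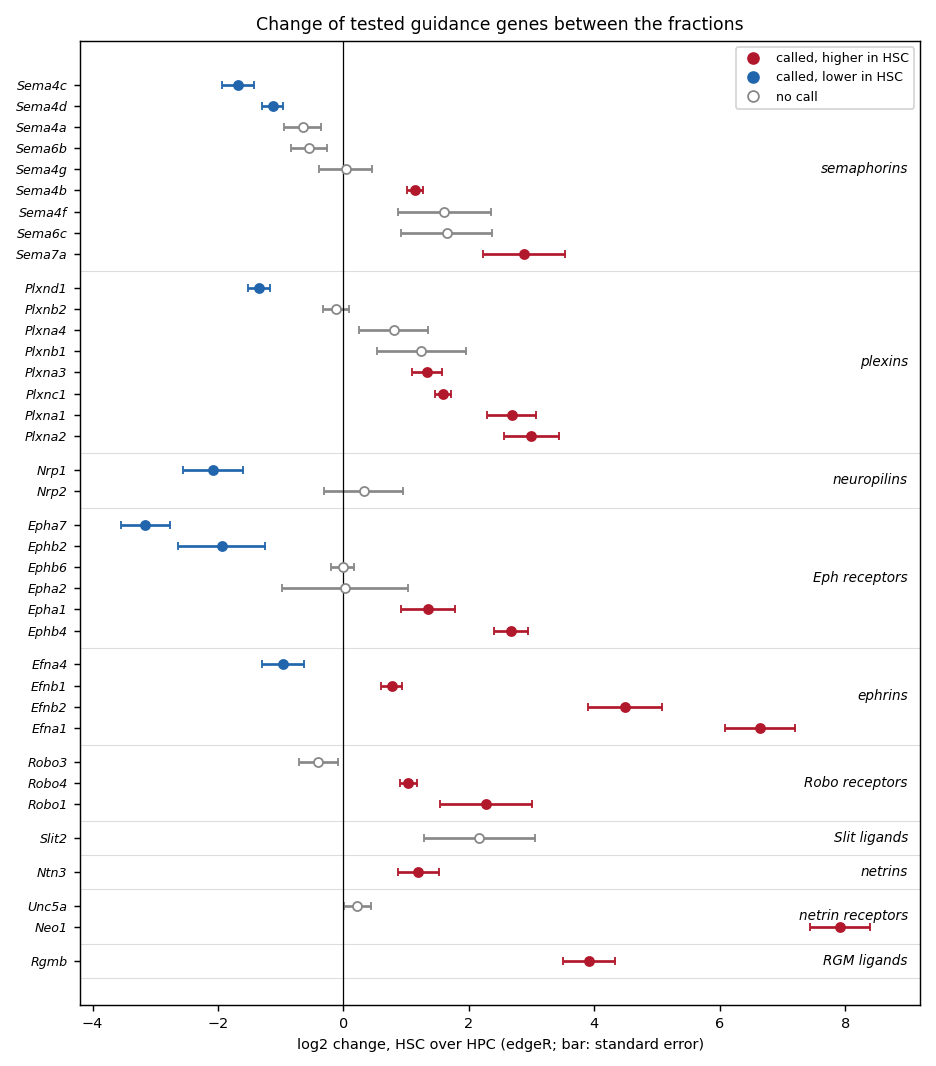
Log2 change of HSC over HPC (x axis) for 37 tested guidance genes by class, with the standard error from edgeR as bars. Filled points passed an adjusted p of 0.05; Sema3d, with no read in any HSC library, has no finite change and is left out. Neo1, Efna1, Efnb2 and Rgmb lie farthest to the right, and Epha7 and Nrp1 farthest to the left.

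Each of the 4 tested ephrins changed, 3 rising in HSC and 1 falling. Efna1 (chr3:89271730-89280951, minus strand, mm10), the lipid-anchored ephrin-A1, had 22.3, 23.9, 25.2 and 26.6 CPM in HSC replicates 1 to 4 and 0.846, 0.0994, 0 and 0 CPM in HPC replicates 1 to 4. It was near 25 CPM throughout HSC and close to absent from HPC, where 18 reads in all were counted against 1837. Efna1 had a log2 change of 6.64 ± 0.56 (SE; adjusted p = 3.88e-07), and 9.17 without HPC replicate 1, which held most of the HPC reads. Efnb2 (chr8:8617235-8661260, minus strand), the transmembrane ephrin-B2 known as a marker of arteries, had 14.1, 13.0, 15.0 and 8.49 CPM in HSC and 0, 0.894, 0.167 and 1.16 CPM in HPC. The lowest HSC library stood well above the highest HPC library. Efnb2 had a log2 change of 4.49 ± 0.58 (adjusted p = 2.64e-05), and 5.09 without HPC replicate 4. Only 10.0% of Efnb2 exon reads crossed a junction.

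Efnb1 (chrX:99136061-99149022, plus strand), a second transmembrane ephrin, differed less. It had 25.3, 26.1, 17.3 and 22.5 CPM in HSC and 16.3, 11.7, 13.0 and 12.5 CPM in HPC, with HSC replicate 3 only just above HPC replicate 1. The mean was 1.70-fold higher in HSC (log2 0.77 ± 0.17, adjusted p = 0.00277). Efna4 (chr3:89333393-89338028, minus strand), another lipid-anchored ephrin, went the other way, with 2.50, 3.71, 2.36 and 2.0 CPM in HSC and 4.12, 5.12, 7.41 and 4.09 CPM in HPC. The fractions did not overlap, but the gap between HSC replicate 2 and HPC replicate 4 was small. Efna4 had a log2 change of -0.97 ± 0.33 (adjusted p = 0.0338). The call was lost without HSC replicate 1, 3 or 4 or without HPC replicate 2 or 3, with adjusted p from 0.0565 to 0.118. Of the exon bases of Efna4, 10.5% overlap the annotated gene 4731419I09Rik. The other ephrins, Efna2, Efna3, Efna5 and Efnb3, had too few reads to test.

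Among Eph receptors, 2 of 6 tested genes were higher in HSC, 2 were lower and 2 had no call. Ephb4 (chr5:137350109-137374522, plus strand), the main receptor of ephrin-B2 and known as a marker of veins, had 17.3, 13.2, 15.0 and 14.1 CPM in HSC and 2.33, 2.73, 3.06 and 1.22 CPM in HPC. Every HSC library was above 13 CPM and every HPC library was under 4 CPM. The mean was 6.39-fold higher in HSC (log2 2.67 ± 0.27, adjusted p = 2.4e-06). Ephb4 and Efnb2, a receptor and its ligand, thus rose in the same fraction, whereas the ephrin-B receptor gene Ephb2, described below, was lower there. Epha1, an ephrin-A receptor, averaged 4.02 ± 1.25 CPM in HSC against 1.57 ± 0.793 CPM in HPC (SD, n = 4; log2 1.35 ± 0.43, edgeR adjusted p = 0.0243). HSC replicate 1 was the highest at 5.90 CPM. The call was lost without that library (log2 1.11, adjusted p = 0.0938), without HPC replicate 3 (1.29, adjusted p = 0.0527) and without HPC replicate 4 (1.11, adjusted p = 0.0561). The exons of Epha1 share 236 bases with those of Zyx on the other strand, a gene at 294 CPM in HSC against 485 CPM in HPC.

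Epha7 (chr4:28813047-28967511, plus strand), another ephrin-A receptor, was the clearest fall in this class. It had 1.73, 0.680, 3.82 and 1.27 CPM in HSC and 19.8, 14.2, 14.7 and 18.9 CPM in HPC. All HPC libraries stood far above all HSC libraries. The mean was 9.02-fold higher in HPC (log2 -3.16 ± 0.39, adjusted p = 1.5e-05), and the log2 change was -3.78 without HSC replicate 3. Ephb2, an ephrin-B receptor, averaged 1.29 ± 1.63 CPM in HSC against 4.9 ± 1.90 CPM in HPC (SD, n = 4; log2 -1.94 ± 0.70, edgeR adjusted p = 0.0405). Its fractions overlapped, because HSC replicate 1 reached 3.70 CPM and HPC replicates 1 and 3 were at 3.65 and 3.23 CPM. The log2 change was -3.32 without HSC replicate 1, and the call was lost without HSC replicate 2, 3 or 4 or HPC replicate 1, 2 or 4, with adjusted p from 0.0515 to 0.104.

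Ephb6 (chr6:41605041-41620507, plus strand), a receptor whose kinase domain is inactive, had the highest level per kilobase among Eph receptors. It had 17.8, 19.4, 11.3 and 13.3 CPM in HSC and 15.6, 17.5, 14.0 and 15.2 CPM in HPC, and the fractions overlapped throughout. Ephb6 had a log2 change of -0.01 ± 0.19 (adjusted p = 0.963). Epha2 averaged 1.13 ± 1.15 and 1.12 ± 1.12 CPM in HSC and HPC (SD, n = 4), with libraries at 0 in both fractions. Its log2 change was -0.85 without HSC replicate 2 and 0.89 without HPC replicate 1.

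**Figure D2:**
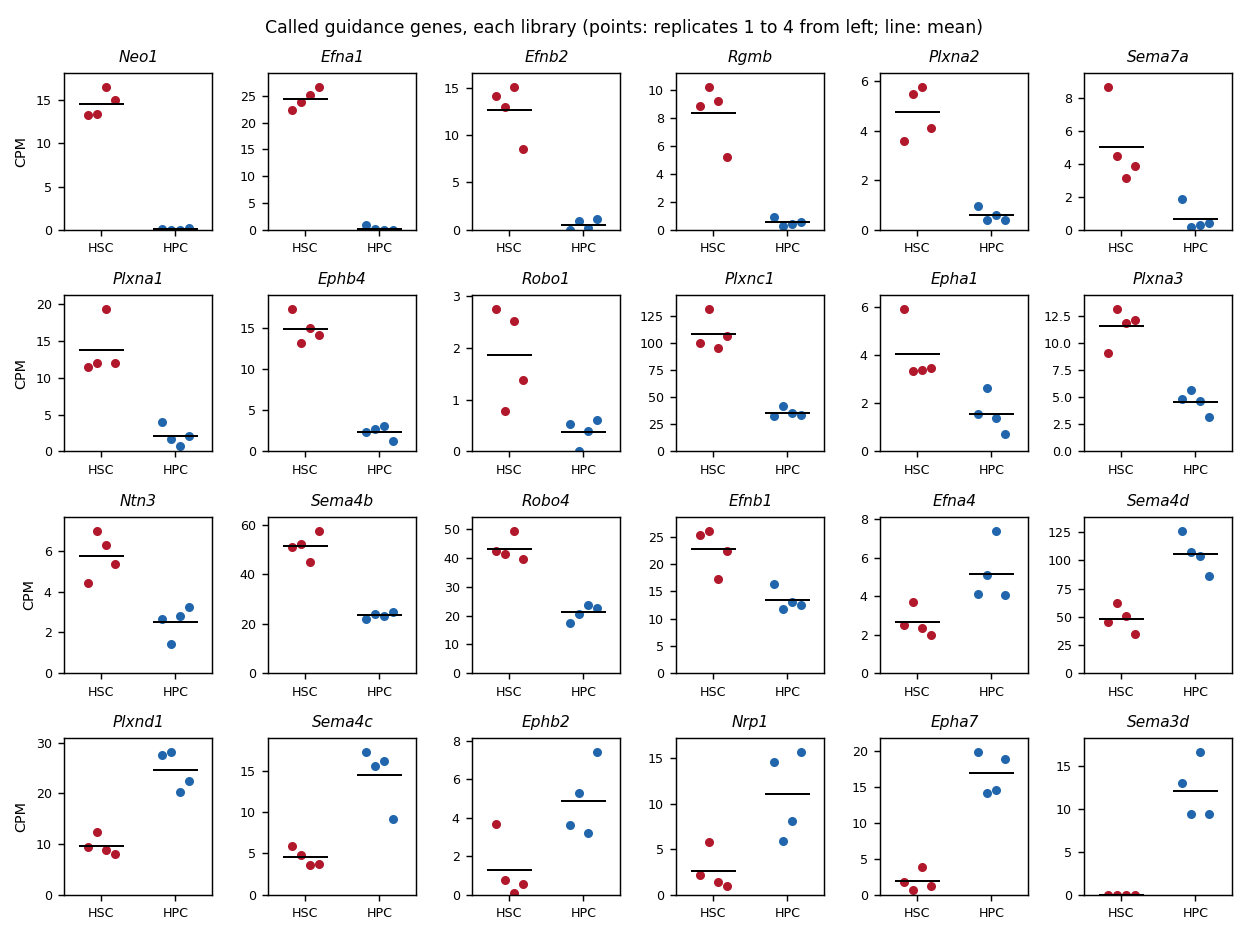
CPM of each library (y axis, starting at 0, a separate scale for each gene) for the 24 called guidance genes, HSC in red and HPC in blue, with points for replicates 1 to 4 from left to right and a line at the mean. Ephb2 is the gene whose fractions overlap, and Sema3d sits at 0 in all HSC libraries.

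The semaphorins split, with 2 of 10 tested genes up in HSC and 3 down, and 5 with no call. Sema3d (chr5:12383166-12588943, plus strand), a secreted class 3 semaphorin, had no exon read in any HSC library. It had 13.0, 9.44, 16.6 and 9.45 CPM in HPC, from 905 reads. Against a floor of 3 reads per library, Sema3d was at least 75.2-fold lower in HSC (edgeR adjusted p = 1.39e-07). Nrp1 (chr8:128358283-128505476, plus strand), the neuropilin that serves class 3 semaphorins as a co-receptor, was also lower in HSC. It had 2.21, 5.80, 1.41 and 1.0 CPM in HSC and 14.6, 5.91, 8.14 and 15.6 CPM in HPC. HSC replicate 2 and HPC replicate 2 almost met, and the other libraries were well apart. Nrp1 had a log2 change of -2.08 ± 0.48 (adjusted p = 0.00326), and -2.85 without HSC replicate 2. Nrp2, the second neuropilin, was near 1 CPM in both fractions, with a log2 change of 0.32 and an adjusted p of 0.731.

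Sema4d (chr13:51685529-51793747, minus strand), a transmembrane semaphorin of immune cells that binds plexin-B1 and the surface protein CD72, was the most abundant guidance ligand per kilobase in HPC. It had 45.5, 62.6, 50.5 and 34.8 CPM in HSC and 126, 107, 104 and 86.3 CPM in HPC, and the highest HSC library was below the lowest HPC library. The mean was 2.19-fold higher in HPC (log2 -1.13 ± 0.16, adjusted p = 6.83e-05). Sema4c (chr1:36548639-36558381, minus strand), a related membrane semaphorin, had 5.96, 4.86, 3.57 and 3.69 CPM in HSC and 17.2, 15.6, 16.2 and 9.11 CPM in HPC. HPC replicate 4 was the lowest of its fraction and still above all HSC libraries. Of the exon bases of Sema4c, 7.27% overlap the annotated gene D430040D24Rik. Sema4c had a log2 change of -1.69 ± 0.25 (adjusted p = 0.000104). Sema4b (chr7:80186841-80226646, plus strand), of the same subclass, moved the other way. It had 51.0, 52.2, 44.9 and 57.6 CPM in HSC and 21.7, 23.8, 23.1 and 24.7 CPM in HPC. The HPC libraries lay within a narrow band at less than the lowest HSC value. The log2 change was 1.14 ± 0.12 (adjusted p = 3.66e-06).

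Sema7a (chr9:57940135-57962865, plus strand), a lipid-anchored semaphorin that binds plexin-C1 and integrins, had 8.64, 4.5, 3.17 and 3.90 CPM in HSC and 1.85, 0.149, 0.279 and 0.442 CPM in HPC. Replicate 1 was the highest of each fraction. Sema7a had a log2 change of 2.88 ± 0.65 (adjusted p = 0.00265), and 4.09 without HPC replicate 1. The 5 semaphorins without a call were Sema4a (log2 -0.65, adjusted p = 0.0929), Sema6b (-0.55, 0.157), Sema4g (0.04, 0.956), Sema4f (1.60, 0.107) and Sema6c (1.65, 0.0928), all by edgeR. Of these, 3 passed the threshold when 1 library was left out. Sema4a did so without HSC replicate 2 (log2 -0.96, adjusted p = 0.0173), Sema4f without HPC replicate 1 (2.50, 0.0311) and Sema6c without HPC replicate 2 (3.01, 0.00371). Sema4f has a second copy on an alternate locus in the deposited tables, and 0.752% of its exon reads were uniquely placed.

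Plexins rose more often than they fell, with 4 of 8 tested genes up in HSC and 1 down, and 3 with no call. Plxnc1 (chr10:94790866-94945275, minus strand), the receptor of semaphorin 7A, was the most abundant guidance receptor per kilobase in HSC. It had 99.9, 131, 95.7 and 106 CPM in HSC and 32.6, 42.2, 35.4 and 33.5 CPM in HPC. The lowest HSC library was more than 2-fold above the highest HPC library. The mean was 3.01-fold higher in HSC (log2 1.59 ± 0.13, adjusted p = 2.32e-07). Plxnc1 and its ligand gene Sema7a were thus both higher in HSC.

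The A plexins, which signal together with neuropilins for class 3 semaphorins, gave 3 genes higher in HSC. Plxna1 (chr6:89316313-89362613, minus strand) had 11.4, 12.1, 19.4 and 12.1 CPM in HSC and 4.07, 1.64, 0.780 and 2.04 CPM in HPC, with HSC replicate 3 apart from its group. Plxna1 had a log2 change of 2.68 ± 0.39 (adjusted p = 7e-05). Of its exon bases, 10.7% overlap the annotated gene Gm26811. Plxna3 (chrX:74329050-74344689, plus strand) had 9.06, 13.1, 11.8 and 12.1 CPM in HSC and 4.81, 5.66, 4.63 and 3.15 CPM in HPC, with no overlap. Its log2 change was 1.34 ± 0.24 (adjusted p = 0.000415). Plxna2 averaged 4.73 ± 1.05 CPM in HSC against 0.587 ± 0.264 CPM in HPC (SD, n = 4; log2 3.0 ± 0.43, edgeR adjusted p = 7.15e-05). Plxna4, the remaining A plexin, averaged 2.48 ± 1.27 and 1.42 ± 0.999 CPM and had no call (log2 0.80, edgeR adjusted p = 0.285). The secreted cue Sema3d and the co-receptor Nrp1 thus had their higher level in HPC, and 3 A plexins in HSC. Other class 3 genes did not share this split. Of those too low to test, Sema3f had 157 exon reads in HSC and 1 in HPC, Sema3e 40 and 0, and Sema3g 6 and 13. Nrp2 had no call.

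Plxnd1 (chr6:115954811-115995005, minus strand), the receptor of semaphorin 3E in blood vessels, was lower in HSC. It had 9.36, 12.3, 8.80 and 8.12 CPM in HSC and 27.6, 28.1, 20.2 and 22.4 CPM in HPC, without overlap. Plxnd1 had a log2 change of -1.35 ± 0.18 (adjusted p = 3.54e-05). Plxnb2, a receptor of class 4 semaphorins, averaged 31.4 ± 5.19 CPM in HSC against 34.2 ± 12.5 CPM in HPC (SD, n = 4). HPC replicate 1 stood at 52.8 CPM and the other HPC libraries between 26.7 and 30.3 CPM. The log2 change was -0.12 ± 0.21 (edgeR adjusted p = 0.692). Plxnb1, the receptor best known for semaphorin 4D, was low, at 1.43 ± 1.17 CPM in HSC against 0.609 ± 0.430 CPM in HPC, and had no call (log2 1.24, edgeR adjusted p = 0.195, 0.61 without HSC replicate 3). Cd72, the gene of another semaphorin 4D receptor, was no member of the 72. It averaged 32.1 ± 4.11 CPM in HSC against 98.7 ± 6.78 CPM in HPC (log2 -1.62, edgeR adjusted p = 7.5e-08). Sema4d and Cd72 were thus both lower in HSC, whereas Plxnb1 and the more abundant Plxnb2 had no call.

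**Figure D3:**
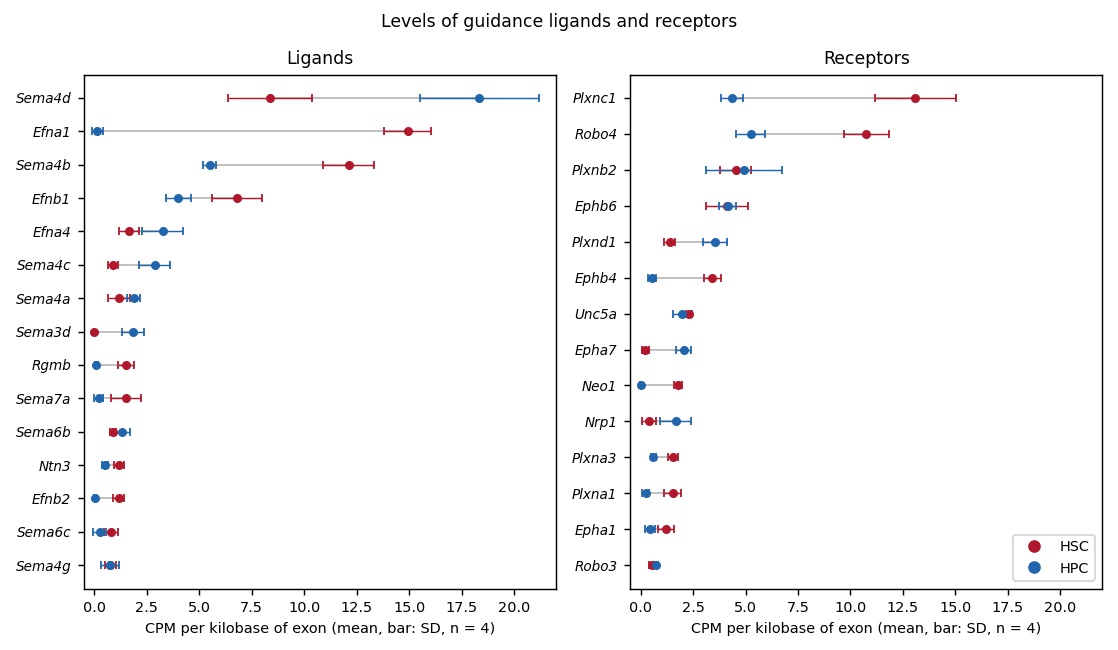
Mean CPM per kilobase of exon (x axis; bars show the SD over 4 libraries) for the tested ligands and receptors that reached 0.5 in either fraction, HSC in red and HPC in blue. Sema4d in HPC has the highest value, 18.3, followed among ligands by Efna1 at 14.9 in HSC, and Plxnc1 leads the receptors at 13.1 in HSC.

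Robo receptors bind Slit ligands, and Robo4, a vascular member of the family, is also known from hematopoietic stem cells. Robo4 (chr9:37401897-37414023, plus strand) had 42.4, 41.3, 49.5 and 39.6 CPM in HSC and 17.5, 20.4, 23.6 and 22.8 CPM in HPC. The fractions were well apart. The mean was 2.05-fold higher in HSC (log2 1.04 ± 0.14, adjusted p = 2.97e-05). Robo1 averaged 1.85 ± 0.932 CPM in HSC against 0.382 ± 0.270 CPM in HPC (SD, n = 4; log2 2.27 ± 0.73, edgeR adjusted p = 0.0245). The call was lost without HSC replicate 1 (2.02, adjusted p = 0.0789), without HSC replicate 3 (2.09, 0.0686) and without HPC replicate 3 (2.28, 0.0574). Robo3 had no call (log2 -0.40, edgeR adjusted p = 0.340), at 3.53 ± 0.948 and 4.67 ± 0.790 CPM.

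Slit2 (chr5:47983102-48307735, plus strand) was the only Slit gene with enough exon reads to test. It had 1.43, 0.575, 1.56 and 2.48 CPM in HSC and 0, 0.497, 0 and 0.83 CPM in HPC. HSC replicate 2 was within the range of HPC. The log2 change of 2.16 ± 0.89 did not pass (adjusted p = 0.0708), and it did without HPC replicate 4 (3.09, edgeR adjusted p = 0.0311). Per kilobase of exon, Robo4 stood at 10.8 in HSC and Slit2 at 0.150.

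Neo1 (chr9:58874679-59037162, minus strand), which encodes neogenin, had the largest rise of all tested guidance genes. It had 13.2, 13.4, 16.4 and 15.0 CPM in HSC and 0.0529, 0, 0 and 0.166 CPM in HPC. The counts were 1090 reads in HSC and 4 in HPC, so the gene was expressed at an even level in HSC and close to absent from HPC. Neo1 had a log2 change of 7.92 ± 0.48 (adjusted p = 1.26e-08), and 9.23 without HPC replicate 4, which held 3 of the 4 HPC reads. The size of the fold therefore rests on very few HPC reads. Rgmb (chr17:15804661-15831817, minus strand), a lipid-anchored ligand of neogenin and a co-receptor for bone morphogenetic proteins, rose in the same fraction. It had 8.88, 10.2, 9.25 and 5.22 CPM in HSC and 0.951, 0.248, 0.446 and 0.552 CPM in HPC. Its lowest HSC library, replicate 4, was still above 5 CPM. Rgmb had a log2 change of 3.92 ± 0.41 (adjusted p = 3.47e-06). Only 10.2% of Rgmb exon reads crossed a junction.

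Ntn3 (chr17:24203831-24209387, minus strand) was the only netrin tested. It had 4.41, 7.0, 6.29 and 5.38 CPM in HSC and 2.64, 1.44, 2.79 and 3.26 CPM in HPC, with a narrow gap between the fractions. Ntn3 had a log2 change of 1.19 ± 0.33 (adjusted p = 0.00988). Of its exon reads 36.9% were uniquely placed and 7.54% crossed a junction, and with uniquely placed reads the call was lost (adjusted p = 0.121). Its exons share 89 bases with those of Tbc1d24 on the same strand, a gene at 18.5 CPM in HSC against 11.9 CPM in HPC. Unc5a (chr13:54949411-55006018, plus strand), a netrin receptor, had 8.82, 8.89, 10.1 and 9.18 CPM in HSC and 8.77, 7.25, 9.92 and 5.75 CPM in HPC. The fractions overlapped, and the log2 change was 0.22 ± 0.22 (adjusted p = 0.461). The classical netrin receptor gene Dcc had 15 exon reads in all, and Ntn1, which encodes netrin-1, had 24.

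The order of levels per kilobase differed between the fractions. In HSC the highest were Efna1 at 14.9 ± 1.11 CPM per kilobase, Plxnc1 at 13.1 ± 1.93, Sema4b at 12.1 ± 1.23, Robo4 at 10.8 ± 1.08 and Sema4d at 8.37 ± 2.0 (SD, n = 4). Neighbours in this order lay within about 1 or 2 SD of each other. In HPC, Sema4d led at 18.3 ± 2.83 CPM per kilobase, far above Sema4b at 5.49 ± 0.297, Robo4 at 5.25 ± 0.683, Plxnb2 at 4.93 ± 1.80, Plxnc1 at 4.34 ± 0.524, Ephb6 at 4.15 ± 0.387 and Efnb1 at 3.99 ± 0.595. After Sema4d, neighbours in the HPC order were separated by less than 1 SD of the more variable gene. Neo1, with its large fold, stood at 1.79 ± 0.185 CPM per kilobase in HSC.

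The 34 guidance genes that were not tested had at most 158 exon reads summed over the 8 libraries. Epha8, Ephb3, Sema3b, Sema5b, Ntn5 and Rgma had none. Another 13 had 1 to 20 exon reads (Epha10, Unc5c, Slit1, Unc5d, Sema3c, Efna3, Robo2, Plxnb3, Sema3a, Dcc, Unc5b, Sema5a and Sema3g). A further 14 had 21 to 100 (Epha3, Ephb1, Efna5, Ntn1, Epha6, Slit3, Sema3e, Epha5, Ntn4, Sema6a, Epha4, Efna2, Efnb3 and Sema6d). Sema3f, a secreted class 3 semaphorin, was the highest, with 0.298, 2.82, 2.31 and 2.74 CPM in HSC and 0, 0, 0.0557 and 0 CPM in HPC. All but 1 of its 158 reads lay in HSC libraries, and HSC replicate 1 was the low one. Of the 34 genes, 20 had more exon reads in HSC, 8 had more in HPC, and 27 had more intron than exon reads.

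Reads that cross an exon-exon junction come from spliced RNA, and the called genes were examined in them. Of the 24 called genes, 21 could be tested with these reads and 20 passed with the direction of all exon reads. The same test on junction reads called 16.1% of all genes tested higher and 14.9% lower. Junction reads are part of the exon reads by which the 24 genes were called, so the agreement is no separate evidence. The shares over all genes are of genes not selected in that way. Efna4 did not pass (adjusted p = 0.266), and Rgmb, Robo1 and Ntn3 had too few such reads. Neo1 had a log2 change of 7.67 in junction reads, Efnb2 3.66, Ephb4 2.73 and Epha7 -3.19. Of intron reads, a set examined after the exon results were seen, 19 of the 24 genes could be tested and 12 passed. Over all genes tested, 11% were higher and 10% lower, again without selection by exon calls. The intron reads come from the same libraries. Of the 12, 11 had the direction of the exon reads, among them Sema3d (-4.93), Epha7 (-2.71), Ephb4 (3.55), Rgmb (2.58) and Plxnc1 (1.29). Neo1 had a log2 change of 2.08 in introns, smaller than in exons. Robo1 went the other way in introns, at -0.77 (edgeR adjusted p = 0.0214), so its exon and intron reads had opposite signs.

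**Figure D4:**
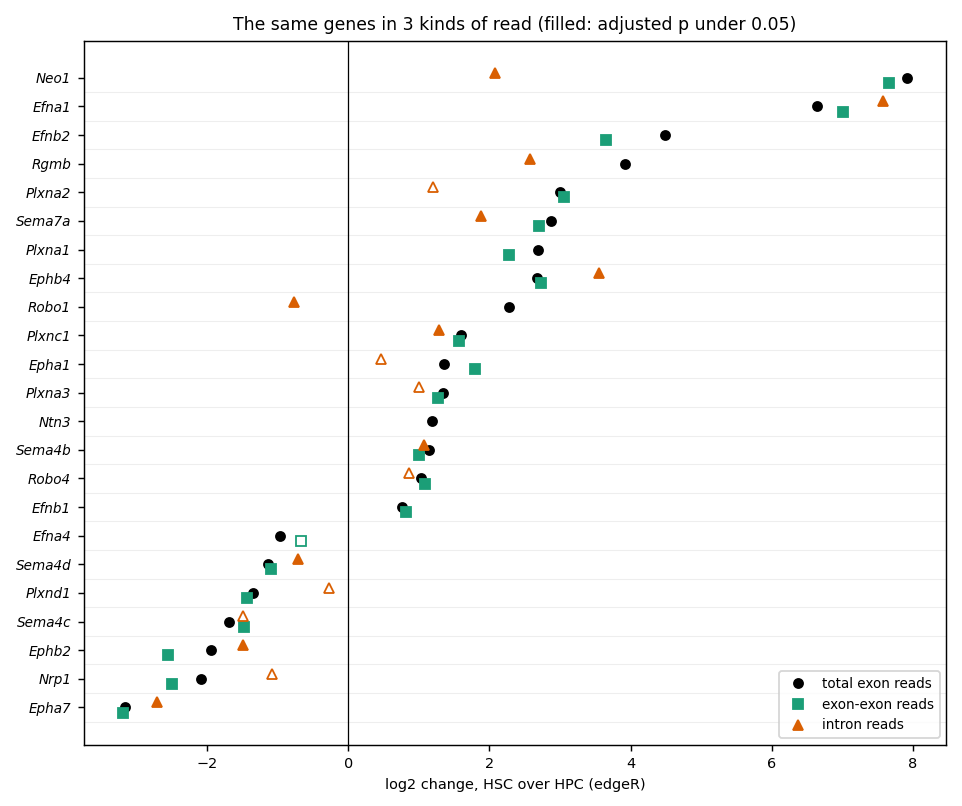
Log2 change of HSC over HPC (x axis) in total exon reads (circles), exon-exon reads (squares) and intron reads (triangles) for 23 called genes; filled symbols passed an adjusted p of 0.05 and Sema3d, with no HSC exon read, is left out. Squares lie near circles for most genes, the Efna1 triangle is a fitted value with no intron read in HPC, and the Robo1 triangle lies on the other side of 0.

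A further 5 guidance genes had an intron call in edgeR without an exon call, all of them higher in HSC. Ntn4, which encodes netrin-4, had 549, 742, 523 and 646 intron reads in HSC and 35, 102, 53 and 81 in HPC (log2 3.17, adjusted p = 7e-07), but 43 exon reads in all. Its HSC libraries were each more than 5-fold above its HPC libraries. Plxna4 had a log2 change of 1.80 in introns (adjusted p = 3.2e-07), Slit2 1.59 (0.00047), Nrp2 1.54 (0.0225) and Sema6a 2.94 (0.0097). Of the Ntn4 intron reads, 49.2% were uniquely placed, and of the Plxna4 intron reads, 42.7%. Sema3c had 19258 intron reads, of which HSC replicate 2 held 19220, and 7 exon reads, all in that library.

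**Figure D5:**
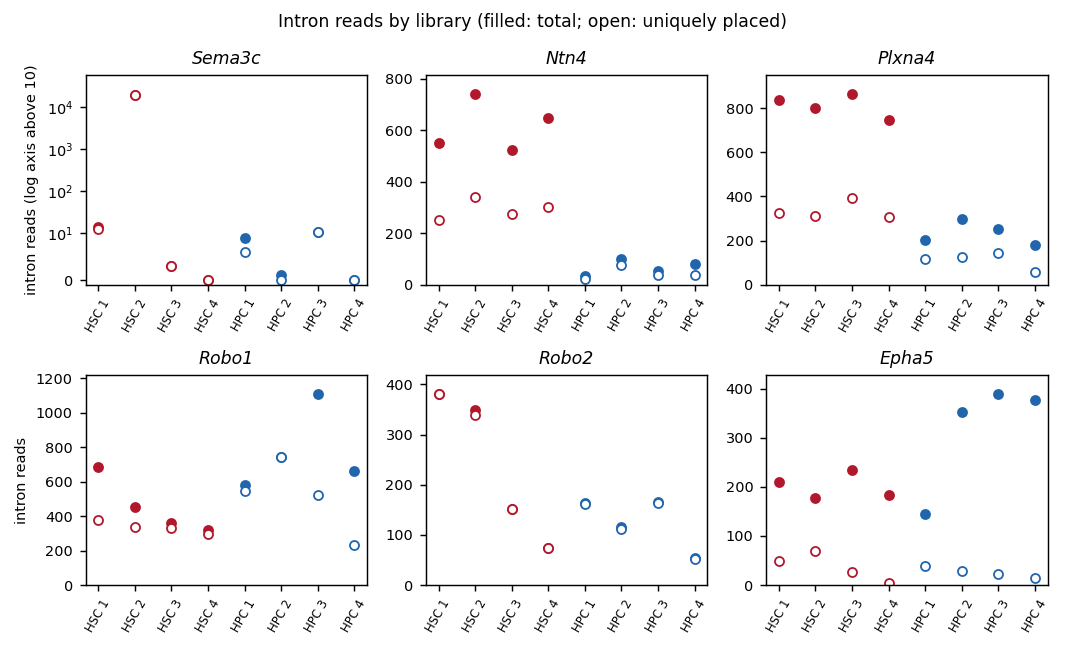
Intron reads in each library (y axis; logarithmic above 10 for Sema3c and linear for the others) for 6 guidance genes, filled for all reads and open for uniquely placed reads, HSC in red and HPC in blue. Sema3c reaches 19220 reads in HSC replicate 2 alone, and Ntn4 and Plxna4 are higher in all HSC libraries.

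Genes for proteins that carry these signals inside the cell moved in both directions. Of 81 intracellular effectors, 71 were tested, 22 were higher in HSC, 19 were lower and 30 had no call, which is 31.0% of those tested higher and 26.8% lower (19.6% and 17.6% over all genes), with a median log2 change of -0.03 against 0.00 over all genes. Higher in HSC were Rap1gap, which inactivates Rap (13.9 ± 1.39 against 2.29 ± 0.281 CPM, SD, n = 4), Arhgef12, whose product binds B plexins (41.9 ± 7.96 against 10.4 ± 3.82 CPM), and Ptk2, the focal adhesion kinase (18.4 ± 3.90 against 5.03 ± 1.96 CPM). Lower in HSC were Evl, a regulator of actin filaments (13.3 ± 2.75 against 46.4 ± 5.97 CPM), Vav3 (28.8 ± 0.623 against 87.6 ± 14.9 CPM), and Mical1, an oxidase that acts on actin after plexin signals (20.4 ± 3.48 against 58.5 ± 12.4 CPM). Of 59 co-receptors and other partners, 40 were tested, 15 were higher in HSC, 8 were lower and 17 had no call, which is 37.5% higher and 20% lower, with a median of 0.15. Higher were Mmp14, a membrane protease (34.6 ± 1.54 against 3.76 ± 1.45 CPM), Sdc2, a heparan sulfate proteoglycan (30.6 ± 2.72 against 3.33 ± 1.39 CPM), and Ryk, a Wnt receptor (16.2 ± 3.05 against 1.92 ± 1.34 CPM). Lower, beside Cd72, were Tyrobp, a signalling adaptor (10.5 ± 7.45 against 51.9 ± 13.2 CPM), and Sdc1, another proteoglycan (6.47 ± 0.941 against 31.2 ± 4.82 CPM).

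Robo4, Ephb4, Efnb2 and Nrp1 are also expressed by endothelial cells, so markers of other cell types were summed in each library. Their called counts stand against 19.6% higher and 17.6% lower over all genes. The 10 endothelial genes summed to 57.9 to 65.0 CPM in HSC and 25.2 to 36.2 CPM in HPC, and 5 of the 8 tested were higher in HSC. The most abundant, Emcn, averaged 29.4 and 20.8 CPM. The other endothelial genes called higher, named after their values were seen, were Sox18 (10.5 against 0.784 CPM, log2 3.72), Kdr, which the partner list also holds (5.15 against 0.699 CPM, log2 2.86), Cldn5 (3.63 against 0.0793 CPM, log2 5.39) and Plvap (8.27 against 4.93 CPM, log2 0.75). Cdh5, which encodes VE-cadherin, averaged 0.922 and 0.644 CPM and had no call. The 5 called endothelial genes thus rose in the same fraction as Robo4, Ephb4 and Efnb2. Nrp1 (log2 -2.08) and Plxnd1 (log2 -1.35), also genes of blood vessels, went the other way. The 10 mesenchymal genes summed to 9.54 to 25.4 CPM in HSC and 1.49 to 8.30 CPM in HPC, with Sp7 at 0 in all libraries and 1 of 2 tested higher. The 10 neural and glial genes summed to 7.54 to 12.8 and 3.62 to 5.30 CPM, with Sox10 and Stmn2 at 0 and 2 of 4 tested higher. Megakaryocyte and platelet genes summed to 1347 to 1733 CPM in HSC and 444 to 558 CPM in HPC, with 6 of 9 tested higher and 1 lower, and mast cell and basophil genes to 5.80 to 38.3 and 84.5 to 206 CPM, with all 7 tested lower. Red cell genes summed to 183 to 462 and 40.9 to 161 CPM, with 3 of 7 tested higher, and T and NK cell genes to 91.2 to 118 and 295 to 383 CPM, with 5 of 8 higher and 1, the abundant Nkg7 (44.6 against 330.4 CPM), lower. Neutrophil and monocyte genes summed to 179 to 285 and 210 to 396 CPM, with 1 of 7 tested lower, and B cell genes to 61.7 to 79.1 and 53.2 to 63.9 CPM, with 3 of 5 higher. The part of these cell types in the guidance gene results was not tested.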

How the data were processed

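Bulk RNA-seq of 4 HSC and 4 HPC libraries was grouped by the sample titles. ISOGEN was used on 5000 sorted cells to obtain RNA, per the labels' protocols. A SMARTer Pico kit and 18 PCR cycles gave cDNA, and Nextera XT the libraries. The build was mm10, per the submitters' processing notes. Aligner, counter and use of strand: not given in the sources used here, so reads of overlapping genes cannot be told apart. Per the file headers, the deposited counts cover exon reads, exon-exon reads, intron reads and gene reads, in total and uniquely placed. The deposited RPKM and TPM columns, named so by the authors and checked against exon reads and lengths, were not used for tests. Uniquely placed reads made up 81.5% to 85.5% of exon reads.

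Total exon reads were summed per gene ID. Genes passing filterByExpr were scaled by TMM and tested with the quasi-likelihood test of edgeR 4.0.16 in R 4.3.3, HSC against HPC with no covariate, with Benjamini-Hochberg adjustment across 12751 genes. SE was taken as log2 change over the root of F. Levels are TMM-scaled CPM of exon reads, and levels of guidance genes were compared with each other only per kilobase of exon. Sums of marker lists and their most abundant genes go by CPM, without scaling by length. The floor for a gene at 0 was 3 reads per library, which covers counting error only. CPM of every library is given for called genes averaging 5 CPM or more in either fraction and for the gene leading each class per kilobase. From each list of partner genes, the 3 called genes with the largest change in each direction, at a mean of at least 10 CPM, are named. The guidance genes and all lists were chosen with earlier results of these data known. Alternatives covered threshold, scaling, filter, replicate block, DESeq2 1.42.0, voom (limma 3.58.1), other read classes and each library left out. Libraries of a fraction differed by more than counting noise, with chi-square values of 11.5 to 38.1 per gene on average, so none was taken as a copy. The symbols Ighm, Trbc1 and Hjv matched no gene with exons. Promoter windows came from RefSeq on GRCm38.p6, and exon overlaps from GENCODE on GRCm38.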

Additional observations from a re-analysis of the deposited data

Results flagged for a closer look

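In a check for single libraries far from the others of their fraction, 2 of 46 groups of 4 stood out, and chance gives about 1 in 20. The 46 groups did not cover both fractions of all 38 tested guidance genes. Efna1 in HPC replicate 1 was at 0.846 CPM, and the other HPC libraries were at 0.0994, 0 and 0 CPM. Plxna1 in HSC replicate 3 was at 19.4 CPM, and the other HSC libraries were between 11.4 and 12.1 CPM.

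Intron reads, which took no part in the main comparison, were numerous for 4 guidance genes with too few exon reads to test. Sema3c had 19258 intron reads over the 8 libraries, of which 19220 lay in HSC replicate 2. Ntn4 had 2731, with each HSC library above each HPC library. Epha5 had 2067, of which 12.4% were uniquely placed. Robo2 had 1454, with 381 in HSC replicate 1 and 54 in HPC replicate 4. The source of these reads was not tested.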

How the results depend on the processing

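Across 22 alternatives, 12 of the 24 called guidance genes kept their call wherever they were tested, and 12 lost it in at least 1. Over single guidance genes, 734 of 811 values kept direction and call, 37 lost the call, 13 gained one and 27 changed sign. The counts of guidance genes ran from 15 to 19 higher and 6 to 8 lower with 1 library left out. Over all genes, 2188 to 2419 were then higher and 1970 to 2183 lower, of 12889 to 12980 tested. Of intron reads, a setting chosen after seeing the data, 5 guidance genes were lower, as were 9 intracellular effectors and 5 partners, and 7 partners were higher. In that setting 1393 of all 12710 genes tested were higher and 1274 lower. When a change of more than 1.5-fold was tested, 13 effectors were higher and 8 lower, 5 partners were lower, and 1296 of all genes were higher and 803 lower. With exon-exon reads 8 partners were higher, as were 1795 of all 11176 genes tested. Without the count filter 23 of 66 guidance genes were higher and 8 lower, where 2572 of all 17040 genes tested were higher and 2256 lower. No label says whether replicate numbers pair the libraries. Deviations of same-numbered libraries correlated at -0.01, -0.12, 0.09 and 0.15, and those of differently numbered libraries at -0.20 to 0.07. Such small correlations do not decide whether the libraries were paired. With the replicate number as a block, 17 of 38 guidance genes were higher and 7 lower. Of all 12751 genes tested, 2588 were higher and 2448 lower with the block. Efna4 then lost its call (edgeR adjusted p = 0.0522) and Sema6c gained one (0.0365). Signs that changed were those of Epha2 (-0.28 with the replicate block), Ephb6 (0.0659 with upper quartile scaling, 0.0516 with voom, 0.13 with exon-exon reads), Sema4g (-0.0196 with voom, -0.0434 with gene reads) and Robo1 (-0.67 with gene reads). In intron reads Robo1 was at -0.77, Robo3 at 0.16, Unc5a at -1.52, Plxnb2 at 0.67, Sema4a at 0.0320 and Sema4g at -0.38. The cause was not tested. With 1 library left out, the log2 change ran from -0.85 to 0.89 for Epha2, -0.15 to 0.12 for Ephb6, -0.19 to 0.62 for Nrp2, -0.23 to 0.16 for Plxnb2 and -0.13 to 0.51 for Sema4g. Depth limits genes of few reads: the 34 untested genes had at most 158 exon reads over the 8 libraries.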
